A study of Mus musculus with 6 samples.

Results

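*Pi15* and 4 related genes with a CAP domain, *Crispld1*, *Crispld2*, *Glipr1* and *Glipr2*, were followed in RNA-seq of mouse primary neuronal cultures. The 5 members were taken by gene symbol out of 55357 genes in the count files, and all 5 had at least 6 reads in at least 1 library, as did 21876 genes in all. The set was chosen from the comparison described here, because *Pi15* stood out in it, so that the differences of the 5 members between the groups are a description and carry no test. The cultures came from cortex and hippocampus of wild type E18 C57BL/6N embryos. In the shPla2g4e group (3 libraries), they received lentiviral particles at DIV4 carrying 1 short hairpin RNA, sh2, directed at *Pla2g4e*, the gene of a calcium-dependent N-acyltransferase of the cytosolic phospholipase A2 family. In the shCtrl group (3 libraries), the particles carried a scrambled hairpin. All cultures were collected at DIV14, and poly(A) RNA was sequenced from stranded libraries. A single hairpin was used and no library without virus was analysed here, so that effects of lowering *Pla2g4e* and other effects of this hairpin cannot be told apart.

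The CAP domain is named after the cysteine-rich secretory proteins (CRISP), antigen 5 and the pathogenesis-related 1 proteins of plants, and most CAP proteins are secreted. *Pi15* encodes peptidase inhibitor 15, a secreted protein first isolated from human brain tumour cells as a weak inhibitor of trypsin. *Crispld1* and *Crispld2* encode secreted proteins that join the CAP domain to LCCL domains, a module found in several extracellular matrix proteins. *Glipr1* encodes glioma pathogenesis-related protein 1, which has a membrane anchor and is a known target of p53. *Glipr2* encodes GAPR-1, which lies on the cytosolic face of the Golgi membrane and binds Beclin 1, a starter of autophagy.

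The relatedness of the set can be read from the stretch known as CRISP signature 1, whose first 8 residues all 5 members hold when any residue is allowed in the first place. Only *Glipr1* and *Glipr2* met the strict pattern there. It is shown because it is the part of the CAP domain shared by the whole set, with the codons of its histidine and tryptophan in capitals. The sequences are the coding strand of GENCODE vM21 transcripts.
*Pi15*, transcript bases 688 to 711: actCATtatacacagatggttTGG
*Crispld1*, transcript bases 1235 to 1258: acaCACtacactcaggtggtgTGG
*Crispld2*, transcript bases 649 to 672: accCACtacacacagatggtcTGG
*Glipr1*, transcript bases 742 to 765: ggcCATtatactcaggttgttTGG
*Glipr2*, transcript bases 664 to 687: gggCACtttacagccatggtaTGG
The *Pi15* stretch was identical to that of *Crispld2* at 20 of 24 bases, to those of *Crispld1* and *Glipr1* at 18, and to that of *Glipr2* at 15. Over the whole proteins, *Pi15* (269 residues) shared 59.3% of 199 aligned positions with *Crispld1* (500 residues) and 55.5% of 247 with *Crispld2* (495 residues). Identity was 35.6% over 191 positions with *Glipr1* (255 residues) and 25.2% over 163 with *Glipr2* (154 residues). *Pi15*, *Crispld1* and *Crispld2* thus formed the close subgroup, and *Glipr2* was the most distant member. These were also the 3 members that held the longer CRISP signature 2, with the codons of its invariant cysteine, tyrosine and asparagine in capitals.
*Pi15*, transcript bases 793 to 828: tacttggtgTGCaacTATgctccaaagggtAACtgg
*Crispld1*, transcript bases 1340 to 1375: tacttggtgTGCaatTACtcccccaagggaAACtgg
*Crispld2*, transcript bases 754 to 789: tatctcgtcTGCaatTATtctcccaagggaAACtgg
Identity with *Pi15* was 30 of 36 bases for *Crispld1* and 28 for *Crispld2*. The 50-base stretches of 1 transcript per member were searched for on both strands of the transcripts of other genes. Of those of *Crispld2* and *Glipr2*, 0.0% occurred in any other gene. The share was 1.295% for *Pi15*, 11.5% for *Crispld1* and 19.0% for *Glipr1*. Genes on the other strand overlapped 12.1% of the exon bases of *Crispld1* and 22.8% of those of *Glipr1*, so the shares are no measure of relatedness.

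Library totals were 17054717 to 23570180 counted reads, and mitochondrial genes took 2.75% to 3.79% of them. *Pla2g4e*, the targeted gene, was at 38.0, 35.1 and 35.4 CPM (counted reads scaled to a common library size with TMM factors) in shCtrl replicates 1 to 3 and at 21.8, 14.1 and 18.7 CPM in shPla2g4e. It was lower in all 3 shPla2g4e libraries (log2 fold change −0.99 ± 0.13 SE, edgeR quasi-likelihood test, Benjamini-Hochberg adjusted p = 1.24e-04). Of the 21876 genes tested, 1419 (6.49%) passed an adjusted p of 0.01, 543 higher (2.48%) and 876 lower, and the median log2 fold change of all of them was 0.03. The split depended on the scaling, with 796 higher and 609 lower when libraries were scaled by their totals alone and 624 and 708 under upper-quartile scaling. Values for the 2 groups did not overlap for 30.0% of genes. Samples with the same replicate number deviated together. With the replicate number in the fit (the replicate block), 3395 of the 21876 genes were called, 1422 higher and 1973 lower. Counts given below with the block are to be read beside these, not beside 6.49%. Without shPla2g4e replicate 3, the smallest library, 1613 genes were called, and without any other single library 695 to 1291. The labels do not say whether the replicates are separate cultures, so that p-values measure the spread between these samples, which may be technical.

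*Pi15* (ENSMUSG00000067780.4, GRCm39 chr1:17672125-17701163, plus strand) had 27, 32 and 40 reads in the shCtrl libraries and 647, 858 and 302 in the shPla2g4e libraries. On the CPM scale these were 1.31, 1.61 and 1.78 in shCtrl and 27.1, 39.7 and 17.3 in shPla2g4e. The lowest shPla2g4e library was far above the highest shCtrl library, so that the groups did not overlap. The mean level was 1.57 ± 0.236 CPM (SD, n = 3) in shCtrl and 28.0 ± 11.2 CPM in shPla2g4e, a ratio of 17.9. The log2 fold change was 4.16 ± 0.27 SE, and it lay between 3.82 and 4.403 when any 1 library was left out and was 4.09 with the replicate block. Within same-numbered samples, the shPla2g4e library was 20.7, 24.6 and 9.72 times the level of its shCtrl partner.

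The level of *Pi15* was even across the shCtrl libraries and uneven across the shPla2g4e libraries. Its coefficient of variation was 15.1% in shCtrl and 40.1% in shPla2g4e. For comparison, 1451 genes were taken whose mean log2 CPM over all 6 libraries was close to that of *Pi15*. Their median coefficient of variation in shPla2g4e was 14.0%, and 97.0% of these genes varied less there than *Pi15*. They were not matched to the higher level of *Pi15* in shPla2g4e. Replicate 2 had the most *Pi15* and the least *Pla2g4e* of the shPla2g4e libraries. The order did not hold for the other 2 libraries, where *Pi15* was lower in replicate 3 and *Pla2g4e* was lower there too.

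*Pi15* had the largest log2 fold change of the 15129 genes whose log2 CPM averaged 0 or more, and it was 180th of all 21876, where each gene above it averaged less. This rank is what the set was chosen by. The nearest genes in log2 fold change, among 3028 others within 1 log2 unit of its mean level, were *Sln* with 3.71 ± 0.24 SE, *Nrap* with 2.704 ± 0.39, *Dmp1* with 2.58 ± 0.35, *Tnfaip6* with 2.46 ± 0.30 and *Gm8369* with 2.35 ± 0.24. *Sln* encodes sarcolipin, an inhibitor of the sarcoplasmic calcium pump, *Dmp1* a matrix protein of bone and dentin, and *Tnfaip6* a secreted hyaluronan-binding protein. *Tnfaip6* went from 2.04 ± 0.577 CPM in shCtrl to 11.1 ± 4.59 CPM in shPla2g4e.

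**Figure D1:**
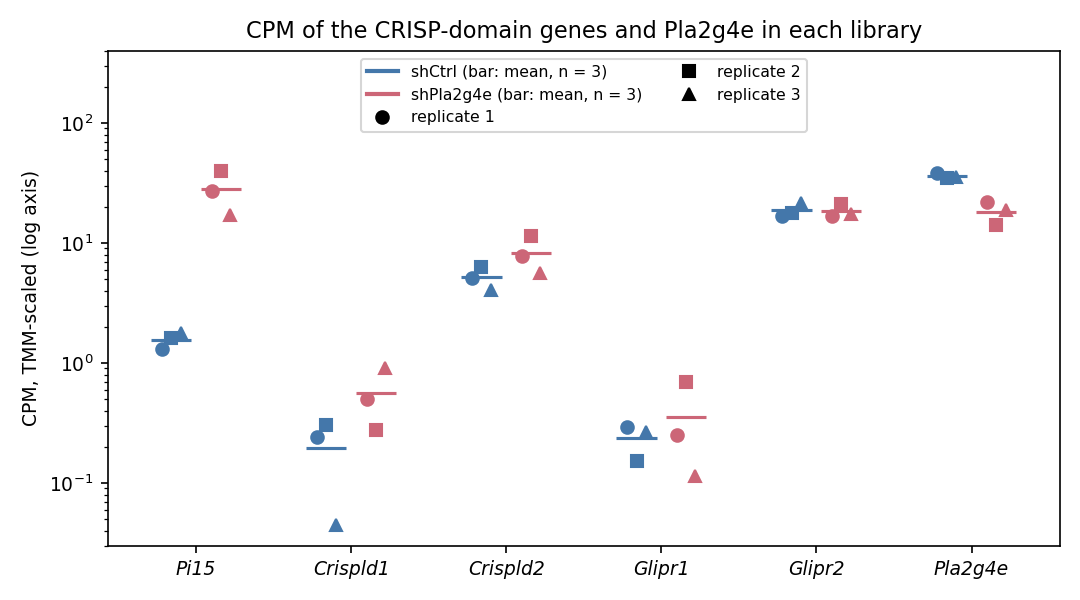
TMM-scaled CPM (log axis) of the 5 CAP genes and *Pla2g4e* in each of the 6 libraries, with a symbol for each replicate number and a bar for the mean of 3 libraries. Only *Pi15* among the 5, the gene the set was chosen by, had groups that did not overlap, beside 30.0% of all genes tested. It lay at 1.31 to 1.78 CPM in shCtrl and 17.3 to 39.7 CPM in shPla2g4e, and *Glipr2* lay at 16.7 to 21.4 CPM in both groups together.

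*Crispld1* (ENSMUSG00000025776.14, chr1:17797269-17836568, plus strand) is the next gene after *Pi15*, on the same strand, with a gap of 96105 bases and no other annotated gene wholly between them. It had 5, 6 and 1 reads in shCtrl and 12, 6 and 16 in shPla2g4e. The groups overlapped, because replicate 2 had 6 reads in both. The mean was 0.196 ± 0.135 CPM in shCtrl and 0.564 ± 0.323 CPM in shPla2g4e, with a log2 fold change of 1.498 ± 0.78 SE. At 1 to 16 reads a library, the difference was within the spread of the libraries. Exons of the antisense gene *Gm16070* covered 12.1% of its exon bases, and the counting was not restricted by strand.

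*Crispld2* (ENSMUSG00000031825.17, chr8:120719177-120779532, plus strand), known for roles in lung and facial development, was at 5.09, 6.34 and 4.08 CPM in shCtrl and at 7.78, 11.3 and 5.60 CPM in shPla2g4e. The groups overlapped, since shPla2g4e replicate 3 lay below shCtrl replicate 2. The means were 5.17 ± 1.13 and 8.24 ± 2.89 CPM (SD, n = 3), with a log2 fold change of 0.68 ± 0.24 SE. *Crispld2* was higher in shPla2g4e in 3 of 3 same-numbered pairs, by ratios of 1.53, 1.79 and 1.37. It did not pass the threshold in the fit without the block, and it did with the replicate block (log2 fold change 0.65). It also passed without shPla2g4e replicate 3 (0.89), and the smallest value, 0.38, came without shPla2g4e replicate 2.

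*Glipr1* (ENSMUSG00000056888.12, chr10:111821353-111838536, minus strand) had 6, 3 and 6 reads in shCtrl and 6, 15 and 2 in shPla2g4e. Both the highest and the lowest library were in the shPla2g4e group. The log2 fold change was 0.58 ± 0.82 SE, and it turned to −0.33 without shPla2g4e replicate 2. Exons of *Krr1* on the other strand covered 22.8% of the exon bases of *Glipr1*, and *Krr1* was at 36.7 ± 3.35 CPM in shCtrl, and reads of the 2 genes cannot be told apart there without strand.

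*Glipr2* (ENSMUSG00000028480.15, chr4:43957401-43979118, plus strand) was at 16.7, 17.9 and 21.4 CPM in shCtrl and at 16.9, 21.1 and 17.5 CPM in shPla2g4e. The values of the groups were interleaved. The means were 18.7 ± 2.42 and 18.5 ± 2.25 CPM, and the log2 fold change was −0.015 ± 0.13 SE, a difference smaller than the spread between replicates. Its sign depended on the scaling, with 0.058 when libraries were scaled by their totals alone.

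One of the 5 members, *Pi15*, passed the adjusted p threshold of 0.01, beside 6.49% of all genes tested. Since the set was chosen by this comparison, nothing is read from that count. It was 2 of 5 with the replicate block, *Pi15* and *Crispld2*.

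Per kilobase of exon, the scale on which genes can be compared with each other, *Glipr2* was the most abundant member in every library. Its mean was 8.05 RPKM in shCtrl and 7.98 RPKM in shPla2g4e. In shCtrl, *Crispld2* followed at 1.08 ± 0.237 RPKM, then *Pi15* at 0.226 ± 0.0341, *Glipr1* at 0.153 ± 0.0485 and *Crispld1* at 0.0435 ± 0.0299 RPKM. *Pi15* and *Glipr1* were neighbours in that order that did not clearly differ, as 1 *Glipr1* library reached 0.189 RPKM, the level of *Pi15* in the same library. In shPla2g4e, *Pi15* stood second at 4.04 ± 1.62 RPKM, ahead of *Crispld2* at 1.72 ± 0.605 RPKM. Among all genes tested, the level of *Pi15* per exon length went from the 20.7 percentile to the 58.9 percentile, and *Glipr2* lay at the 71.8 and 72.1 percentiles.

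Of the summed RPKM of the 5 genes, *Pi15* made up 2.36% ± 0.161 in shCtrl and 28.0% ± 5.56 in shPla2g4e, and *Glipr2* 84.1% ± 3.18 and 57.6% ± 7.34. The share of *Crispld2* was 11.5% ± 3.03 and 12.01% ± 1.63. The sum itself was 9.56 ± 0.908 RPKM in shCtrl and 14.1 ± 3.23 RPKM in shPla2g4e. In bulk RNA, more cells that express a gene and more RNA per cell cannot be told apart.

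**Figure D2:**
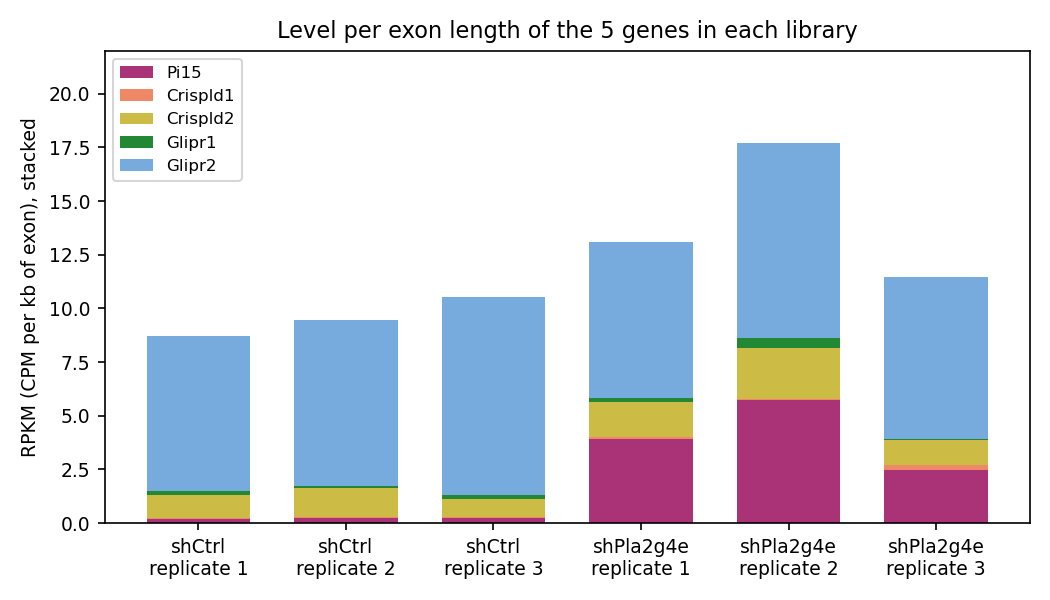
Level per kilobase of exon (RPKM) of the 5 genes, stacked, in each of the 6 libraries. The *Pi15* part is 0.189 to 0.257 RPKM in the shCtrl libraries and 2.49 to 5.73 RPKM in the shPla2g4e libraries, on top of which the *Glipr2* part stays at 7.21 to 9.22 RPKM.

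The CAP genes outside the set were examined next. Of 10 listed, 4 had enough reads to be tested, and 2 of these, *Crisp1* and *Clec18a*, were called higher and none lower, beside 2.48% of all genes called higher. *Crisp1* reached the 6 reads needed for the test only in shPla2g4e, the group where it was high, so that nothing is read from this count. Limma-voom called *Clec18a* alone, and DESeq2 called 2 of the 4. *Clec18a*, which joins a CAP domain to a lectin domain, was at 4.66, 4.53 and 3.91 CPM in shCtrl and at 10.9, 9.39 and 7.88 CPM in shPla2g4e. Every shPla2g4e library was above every shCtrl library, and the log2 fold change was 1.11 ± 0.18 SE (edgeR adjusted p = 6.01e-04). Another annotated gene on the same strand overlaps 9.21% of its exon bases.

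*Crisp1*, a secreted protein of the epididymis that coats sperm, had 3, 0 and 0 reads in shCtrl and 47, 57 and 9 in shPla2g4e. The ratio of its reads between the groups, each scaled by the group's total, was 39.6, with an exact 95% interval of 13.2 to 195 that covers counting error only and is too narrow, since both reads of a pair were counted. The edgeR log2 fold change was 5.01 ± 0.85 SE, a description with no test for the reason given above. With 1 library left out, the log2 fold change was 4.44 to 5.43, other than without shCtrl replicate 1, which holds all 3 of the shCtrl reads, where the fitted value of 8.19 depends on the prior count. Even in shPla2g4e its level was low, at 1.71 ± 1.08 CPM. *Crisp1* shares 31.0% of 213 aligned residues with *Pi15*, and it holds both CRISP signatures. Its signature 1 stretch, shown because it differs from that of *Glipr1* at a single position, was identical at 23 of 24 bases.
*Crisp1*, transcript bases 464 to 487: ggaCATtatactcaggttgttTGG
*Pi16* had a log2 fold change of −0.56 ± 0.64 and *Crisp3* of −1.42 ± 1.77, and neither passed. *Crisp2*, *R3hdml* and *Glipr1l3* had at most 2 reads in any library, and *Crisp4*, *Glipr1l1* and *Glipr1l2*, the last 2 of which lie beside *Glipr1*, had 0 reads in all 6.

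**Figure D3:**
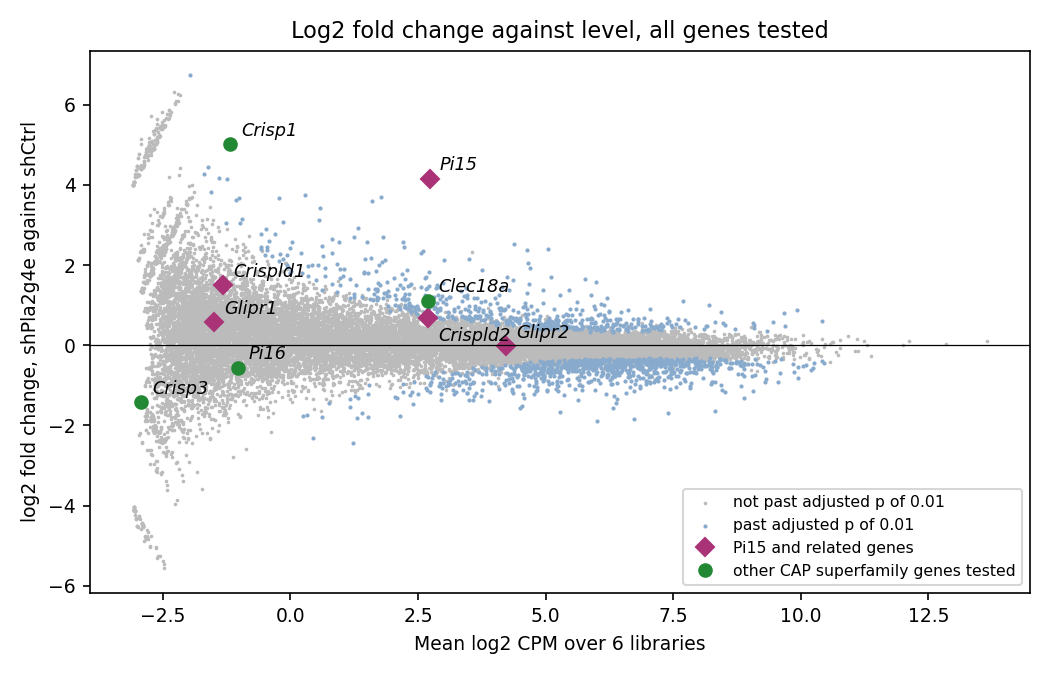
Log2 fold change (shPla2g4e against shCtrl) against mean log2 CPM for the 21876 genes tested, with genes past an adjusted p of 0.01 in blue, the 5 members as diamonds and the other 4 tested CAP genes as circles. *Pi15* (4.16) lies above all genes of at least its level, *Crisp1* (5.01) sits among genes with few reads, and *Glipr2* (−0.015) lies on the zero line.

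Within 200 kb of a member, 17 pairs of a member and a coding gene could be tested, and the only one called was *Pi15* itself, as the neighbour of *Crispld1*. The antisense gene *Gm28154*, which overlaps 0.98% of the exon bases of *Pi15*, had 4, 2 and 10 reads in shCtrl and 5, 2 and 4 in shPla2g4e, and the groups overlapped. Around *Crispld2*, the log2 fold changes of the 7 tested coding neighbours were −0.14 ± 0.19 for *Klhl36*, −0.0032 ± 0.083 for *6430548M08Rik*, 0.052 ± 0.094 for *Zdhhc7*, 0.063 ± 0.10 for *Cotl1*, 0.067 ± 0.094 for *Gse1*, 0.089 ± 0.079 for *Usp10* and 1.503 ± 0.81 for *Fam92b*, which had 2 to 11 reads. The noncoding neighbour *A130014A01Rik* had a log2 fold change of 0.65 ± 0.20 (edgeR adjusted p = 0.0411, and 0.00470 with the replicate block). Beside *Glipr2*, the log2 fold changes were −0.60 ± 0.38 for *Spaar*, −0.15 ± 0.078 for *Clta*, −0.036 ± 0.14 for *Reck*, itself an inhibitor of matrix metalloproteinases, and 0.033 ± 0.11 for *Gne*. *Ccin* had 8 reads in shCtrl replicate 2 and 0 in every other library. Beside *Glipr1*, they were −0.20 ± 0.10 for *Krr1* and 0.10 ± 0.66 for *Caps2*.

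Genes whose log2 CPM over the 6 libraries followed that of *Pi15* most closely, among 10908 genes averaging 3 or more on that scale, were *9330151L19Rik* (Pearson r 0.998), *Slc30a9* (0.996), *Tmem178* (0.995), *Unc119* (0.995) and *Peg3* (0.994). *Zhx3* (−0.9997), *Lmbrd1* (−0.998) and *C330007P06Rik* (−0.998) ran opposite to it. The 6 points share the split into 2 groups of 3 libraries. The closest genes had smaller differences than *Pi15*, with log2 fold changes of 0.66 ± 0.091 for *9330151L19Rik* and 0.23 ± 0.074 for *Slc30a9*. For *Crispld2*, the closest gene was *Abcb1b*, a multidrug transporter (r 0.995), at 7.51 ± 1.06 CPM in shCtrl and 10.9 ± 3.29 CPM in shPla2g4e. *Greb1l*, *Acsf3*, *Ubxn4* and *Slc25a20* followed (0.992 to 0.985), and *Inpp5b* and *Col19a1* ran opposite (−0.995 to −0.993). For *Glipr2* it was *Pttg1ip* (r 0.981), at 89.4 ± 7.06 CPM in shCtrl and 88.1 ± 8.46 CPM in shPla2g4e, followed by *Cd109*, *Mtfr1l*, *Pex3* and *Yju2* (0.971 to 0.964), with *Aak1*, *Klhdc3* and *Arnt2* opposite (−0.984 to −0.954). Among the members, the r with *Pi15* over the 6 libraries was 0.763 for *Crispld2*, 0.577 for *Crispld1*, 0.346 for *Glipr1* and 0.0826 for *Glipr2*.

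The hairpin used here has a target in *Pla2g4e* that none of the transcripts searched here for the members holds. Guide strands can also pair through bases 2 to 8, the seed, and the sequences are shown because they allow the members to be searched for such pairing. The target is given as the DNA sense strand with the seed match in capitals, and the guide as RNA with its seed in capitals.
sh2 target: ggaagatggtgGTGGCCAa
sh2 guide: uUGGCCACcaccaucuucc
The letters GTGGCCA were searched for on the mRNA strand only. They occurred in 0 of the 5 members' 3′ UTRs, against 1847 of 15443 tested genes (11.96%) that hold them there. The *Pi15* 3′ UTR searched was 5972 bases long. In coding sequence, *Glipr1* held the letters at 2 positions, 1 of them overlapping its signature 1, and *Glipr2* at 1, while *Pi15*, *Crispld1* and *Crispld2* held none.

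*Pi15* belongs by name to the inhibitors of extracellular peptidases, so the inhibitors and the serine proteases they could meet were counted as lists. Of 25 tested peptidase inhibitors, 1 rose and none fell, beside 6.49% of all genes called in either direction, and their median log2 fold change was −0.06. *Serpinf1*, the neurotrophic serpin PEDF, rose from 6.88 ± 1.51 to 12.5 ± 2.15 CPM (log2 fold change 0.86 ± 0.18, edgeR adjusted p = 0.00474). It missed the threshold without shCtrl replicate 2 or 3 or shPla2g4e replicate 2 (adjusted p = 0.0336, 0.0160 and 0.0274). *A2m*, a broad inhibitor that traps peptidases, was at 11.4 ± 2.96 and 6.23 ± 2.08 CPM (−0.89 ± 0.22, adjusted p = 0.0143, and 1.51e-06 with the replicate block). *Timp4*, an inhibitor of metalloproteinases, had −0.50 (adjusted p = 0.0432) and passed with the block. With the block, 1 inhibitor was called higher and 3 lower, beside 1422 and 1973 of all 21876 genes. Without shPla2g4e replicate 3 these were 1 and 2 (*A2m* and *Timp4*). The count called was 0 of 25 in the fits in which *Serpinf1* was lost. The log2 fold changes of the 25 ran from −0.89 (*A2m*) to 0.86 (*Serpinf1*). *Pi15* was chosen for its large difference, so nothing is read from its distance to these genes. The list does not hold every peptidase inhibitor gene.

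Of 13 tested extracellular serine proteases, 2 rose and none fell, beside 6.49% of all genes called and 2.48% called higher, and the median of their log2 fold changes was 0.38. *Plat*, tissue plasminogen activator, was at 49.8, 45.2 and 48.3 CPM in shCtrl and at 89.3, 119 and 83.4 CPM in shPla2g4e. The groups did not overlap, and the log2 fold change was 1.03 ± 0.11 SE (edgeR adjusted p = 2.37e-05). *Masp1*, a complement protease, went from 15.3 ± 0.371 to 28.0 ± 7.82 CPM (0.88 ± 0.16, adjusted p = 0.00135). The highest library of both was shPla2g4e replicate 2 and the lowest shPla2g4e library was replicate 3. *Pi15* had this order too, but so did *Crispld2*, *Serpinf1* and *Ccng1*, so it is not particular to *Pi15* and the proteases. *Clec18a* was highest in shPla2g4e replicate 1. *Prss12*, neurotrypsin, was at 25.3 ± 1.98 and 31.0 ± 1.20 CPM and did not pass (adjusted p = 0.0619). With the replicate block, 4 proteases were called higher and 1 lower, beside 1422 and 1973 of all 21876 genes. Without shPla2g4e replicate 3, 2 were called higher and 1 lower.

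**Figure D4:**
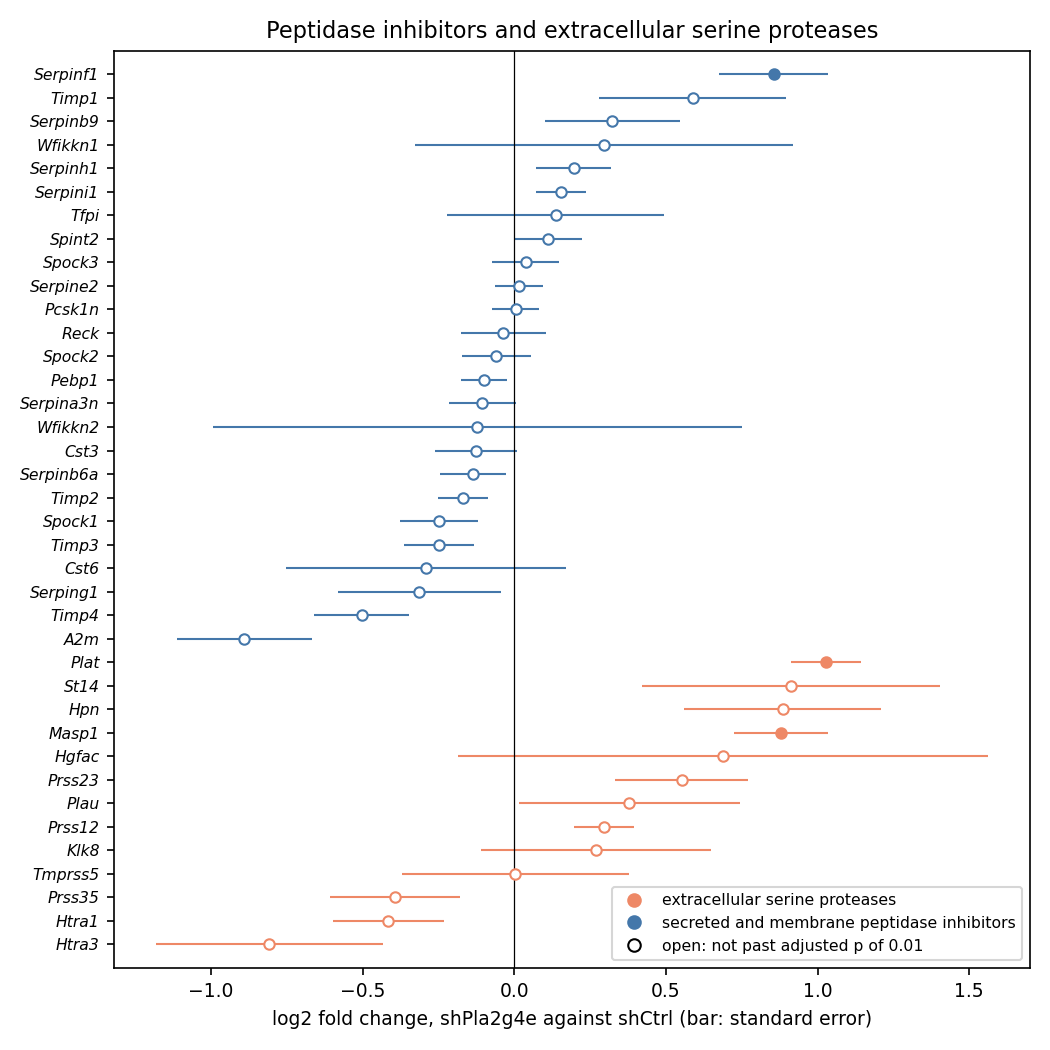
Log2 fold change with its standard error for the 25 peptidase inhibitors (blue) and 13 extracellular serine proteases (orange) tested, filled where the adjusted p was under 0.01. *Plat* (1.03), *Masp1* (0.88) and *Serpinf1* (0.86) are filled. *Pi15*, the gene the set was chosen by, is not plotted.

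Lists tied to the other members were counted in the same way, beside the 6.49% of all genes called. None of the 4 other LCCL domain genes passed, with *Dcbld1* at 0.42 ± 0.13, *Vit* at −0.68 ± 0.24 and *Coch* at 0.29 ± 0.13 (edgeR adjusted p = 0.0398, 0.0804 and 0.180). Of the 4, 3 had an unadjusted p under 0.05, and limma-voom and DESeq2 called 0. With the replicate block, *Dcbld1* and *Vit* passed, in opposite directions, and *Vit* passed without shPla2g4e replicate 3. Of 10 genes of the Beclin 1 autophagy complex, the partner of the *Glipr2* product, *Vmp1* rose (0.36 ± 0.078, adjusted p = 0.00568) and none fell, with a median of −0.03. *Vmp1* missed the threshold in every fit with 1 library removed other than that without shCtrl replicate 1, with adjusted p of up to 0.0437. The regulator *Rubcn* had −0.31 ± 0.079 and passed with the block and without shPla2g4e replicate 3.

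Of 17 p53 targets, a group to which *Glipr1* also belongs, *Ccng1* rose (0.46 ± 0.10, adjusted p = 0.00697) and *Zmat3* fell (−0.46 ± 0.081, adjusted p = 0.00125), with a median of 0.14. *Ccng1* missed the threshold without shCtrl replicate 1, 2 or 3 or shPla2g4e replicate 1 or 2, with adjusted p of up to 0.0550, and *Zmat3* without shCtrl replicate 2 (0.0111). With the block, 6 of the 17 were called higher and 1 lower, beside 1422 and 1973 of all 21876 genes. The same list counts came without shPla2g4e replicate 3, where *Bbc3*, *Phlda3*, *Trp53inp1*, *Eda2r* and *Cdkn1a* were added. With any other single library left out, 0 or 1 of the 17 was called. *Crispld2* is known to be induced by glucocorticoids in airway muscle. Of 10 glucocorticoid response genes, *Dusp1* (1.08 ± 0.090), *Sgk1* (0.76 ± 0.099), *Per1* (0.62 ± 0.095) and *Ddit4* (0.45) rose and none fell, with a median of 0.04 (edgeR adjusted p = 1.72e-06 for *Dusp1*). *Ddit4* missed the threshold without shCtrl replicate 2 (adjusted p = 0.0249) or shPla2g4e replicate 2 (0.0155). With the replicate block, 4 were called higher and 2 lower, *Nr3c1* (−0.36), the glucocorticoid receptor itself, and *Zbtb16* (−0.40). DESeq2 also called 6.

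The cultures expressed neuronal genes strongly, with 10 pan-neuronal markers summing to 5654 to 6192 CPM in shCtrl and 5335 to 5755 CPM in shPla2g4e. Of the 10, 2 were called higher and 2 lower. For this and the lists that follow, 6.49% of all genes were called and 2.48% were called higher. The 10 glutamatergic markers summed to 2270 to 2456 CPM in shCtrl and 1720 to 2012 CPM in shPla2g4e, without overlap. Their median log2 fold change was −0.10, with 5 higher and 5 lower in value, and 1 was called higher and 2 lower (3 and 3 with the replicate block). The 10 GABAergic markers summed to 839 to 918 CPM and 805 to 907 CPM, with 2 called higher and 2 lower. Without shCtrl replicate 2, 1 pan-neuronal and 1 glutamatergic marker were called. The cultures also held glia. The 10 oligodendrocyte lineage markers summed to 452 to 505 CPM in shCtrl and 432 to 612 CPM in shPla2g4e, and edgeR, limma-voom and DESeq2 called 0 of them, with 1 at an unadjusted p under 0.05 and 1 called lower with the block and 1 higher without shPla2g4e replicate 3. Astrocyte markers summed to 2913 to 3738 CPM in shCtrl and 1979 to 3172 CPM in shPla2g4e. Of the 10, *Aqp4*, *Gja1* and *Slc1a2* fell and none rose, beside 6.49% of all genes called, with a median of −0.39. With the replicate block, 7 were called lower, *Gfap* among them (−0.64), and *S100b* was called higher (1.12). In that fit 1973 of all 21876 genes were called lower and 1422 higher. Without shPla2g4e replicate 3, 6 were called lower and 0 higher, and without any other single library 1 to 3 were called. *Gja1* and *Slc1a2* missed the threshold in some of those fits (adjusted p of up to 0.0161 and 0.0531). *Crispld2* is typical of mesenchymal cells in several organs. The 10 fibroblast and meningeal markers summed to 202 to 216 CPM in shCtrl and 222 to 253 CPM in shPla2g4e, and none of them passed the threshold. Their median was 0.28, and *Dpt* was at 0.416 ± 0.190 CPM in shCtrl and 1.33 ± 0.286 CPM in shPla2g4e (edgeR adjusted p = 0.0265). With the replicate block, *Fn1*, *Col1a1* and *Col1a2* were called higher, the last 2 also without shPla2g4e replicate 1. None of the 8 mural, 7 endothelial or 8 microglial markers tested passed in edgeR without the block either, and 0, 1 and 3 of them had an unadjusted p under 0.05, against 4 of the 10 fibroblast and meningeal markers. Limma-voom and DESeq2 called 0 in these 4 lists as well. With the block, 1 endothelial marker, *Kdr*, was called higher (1.21, edgeR adjusted p = 8.91e-05). Mural markers summed to 68.6 to 119 CPM in shCtrl and 75.9 to 122 CPM in shPla2g4e, and endothelial markers to 6.60 to 13.5 and 8.49 to 15.7 CPM. Of the 10 markers of each list, *Kcnj8* and *Higd1b* of the mural and *Cldn5* of the endothelial list had 0 reads in all libraries, while *Pdgfrb* had 204 to 423 reads a library, *Rgs5* 50 to 108 and *Kdr* 20 to 163. Microglial markers summed to 22.3 to 30.7 CPM in shCtrl and 24.8 to 25.5 CPM in shPla2g4e. The part of these cells in the level of *Pi15* was not tested.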

How the data were processed

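Poly(A) RNA of 6 samples of neuronal cultures, 3 shCtrl and 3 shPla2g4e by their labels, was sequenced from libraries of a stranded kit. The authors used STAR (2.7.0d) for alignment and counted reads on exons with featureCounts (1.6.0), per the submitters' processing notes, and deposited raw counts per gene. Per the file headers, the counts use GENCODE vM28 (GRCm39) without strand or pair options, while the methods name an earlier release. Between 65.7% and 67.0% of low counts were even, as when both reads of a pair are counted, so counting error is larger than read numbers imply.

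The 5 members, the gene lists and the tests were chosen with earlier results of these data known. A few genes that the lists or the naming rule would include are not reported here. Symbols and transcripts came from GENCODE vM21 (GRCm38), which matched 52081 of 55357 identifiers. The groups were compared by edgeR 4.0.16 under R 4.3.3 (TMM, glmQLFit, glmQLFTest, Benjamini-Hochberg, threshold 0.01), after genes below 6 reads in every library were removed as in the study, and standard errors came from the F statistic. The code was tested on simulated data. The study's limma-voom test (limma 3.58.1), DESeq2 1.42.0, other scalings, filters and a replicate block were alternatives. RPKM was computed as CPM per kilobase of summed exons, and proteins were aligned with Biopython 1.88 after translation of the coding sequence. Named are the 5 members, *Pla2g4e*, up to 3 genes of smallest p in each list, coding neighbours within 200 kb, the genes of most similar or opposite profile over the libraries, and the 5 genes of like level nearest to *Pi15* in log2 fold change. *Ddit4*, *Nr3c1*, *Zbtb16*, *Phlda3*, *Trp53inp1*, *Eda2r*, *Cdkn1a*, *Gfap*, *S100b*, *Col1a2*, marker genes at 0 reads and *A130014A01Rik* and *Gm28154* were named after their values were seen, as were *Crisp2*, *Crisp3*, *Crisp4*, *R3hdml*, *Glipr1l1*, *Glipr1l2* and *Glipr1l3*.

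Deviations from the group means of samples with the same number in their titles correlated with r of 0.392, 0.189 and 0.461 over 10908 genes, and those of different numbers with −0.393 to 0.108, so that the numbers were taken to pair the samples. No pair of libraries agreed within sampling noise.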

Additional observations from a re-analysis of the deposited data

How the results depend on the processing

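The log2 fold change of *Pi15*, by which it was chosen, was above 0 in all 17 alternatives, and no support is drawn from that. The 1419 genes called became 2349 with no filter, 3395 with the replicate block, 2813 at an adjusted p of 0.05 and 695 to 1613 with a library left out (lowest without shCtrl replicate 2, highest without shPla2g4e replicate 3). Members called went from 1 to 2 of 5 with no filter and with the block, and were 1 to 2 with a library left out (2 without shPla2g4e replicate 3). In each case the added member was *Crispld2*, with log2 fold changes of 0.68 with no filter, 0.65 with the block and 0.38 to 0.89 with a library left out. *Glipr2*, near 0 throughout, turned to 0.019 under upper-quartile scaling, 0.058 under library size alone and 0.0034 with at least 10 reads in every library, and ranged from −0.12 to 0.094 with a library left out. *Glipr1* ranged from −0.33 to 0.97. *Crispld1* and *Glipr1* dropped out under that stricter filter and under edgeR's filterByExpr, and DESeq2 gave 5514 genes, both among them, no adjusted p. The block changed the call of no other member. The causes were not tested. Depth limits *Crispld1* and *Glipr1*, at 1 to 16 reads a library.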
